A study of Mus musculus with 4 samples.

Results

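The mitochondrially encoded genes are the 37 genes carried by the mitochondrial DNA of the mouse, which encode 13 proteins, 2 rRNAs and 22 tRNAs. They were taken as every row of the count table whose Ensembl identifier maps to a symbol that begins with mt-, and they made up 37 of 46603 gene rows. RNA-seq counts came from whole liver of 4 male mice kept for 4 weeks on a Western diet with sugared drinking water (WDSW). Mice 1 and 2 carry the label control, and mice 3 and 4 the label HuR hKO. HuR, encoded by Elavl1, is an RNA-binding protein that stabilizes many mRNAs, and the comparison asks how liver RNA differs when hepatocytes lack it.

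All 4 mice were HuR flox/flox on the C57BL/6 J background, so the controls carried the floxed alleles too, and all received an AAV8 vector by tail vein. HuR hKO mice received AAV8-TBGP-Cre and control mice AAV8-TBGP-GFP. TBGP is the promoter of thyroxine-binding globulin, which directs Cre to hepatocytes and leaves the floxed alleles of other liver cells in place. The diet gave 42% of its energy as fat with 0.1% cholesterol, and the water held 23.1 g/L fructose and 18.9 g/L glucose. The ages of the mice were matched but are not given in the labels.

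Mitochondrial DNA is transcribed as long polycistronic RNAs from both strands. Most mRNAs and both rRNAs are flanked by tRNAs, and cutting out the tRNAs releases them, an arrangement known as tRNA punctuation. The proteins are core subunits of the respiratory chain complexes I, III and IV and of ATP synthase (complex V), and the rRNAs form the mitochondrial ribosome that translates them. All other subunits, and every protein that transcribes, processes or translates mitochondrial RNA, come from nuclear genes. In bulk tissue, fewer cells of a type and less RNA per cell cannot be told apart.

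The annotation (GENCODE M21, GRCm38) places 12 protein genes, both rRNA genes and 14 tRNA genes on the plus strand of chrM, and mt-Nd6 with 8 tRNA genes on the minus strand. The tRNA genes are 59 to 75 bases long. The first sequences show the punctuation at the junction of both rRNA genes, where mt-Tv, the valine tRNA, lies between them with no base to spare. They are the last 15 bases of mt-Rnr1 (chrM:1010-1024, plus strand), the whole of mt-Tv (chrM:1025-1093, plus strand) and the first 15 bases of mt-Rnr2 (chrM:1094-1108, plus strand), read from the GENCODE M21 transcripts.
mt-Rnr1 end: tgtgcttggaataat
mt-Tv: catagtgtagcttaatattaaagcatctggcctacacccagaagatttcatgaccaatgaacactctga
mt-Rnr2 start: actaatcctagccct

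Not every pair of genes is separated by a tRNA. The next sequences show 3 places where protein genes share bases. A read there belongs to both genes, and the counting rule decides where it goes. The 1 base shared by mt-Atp6 and mt-Co3 (chrM:8607) is not shown. mt-Atp8 and mt-Atp6, both subunits of ATP synthase, share 43 bases (shown within chrM:7915-7981). mt-Nd4l and mt-Nd4, both subunits of complex I, share 7 bases (within chrM:10155-10185). mt-Nd5 and mt-Nd6 share 14 bases on opposite strands (within chrM:13540-13577, written as the plus strand). Capitals mark the shared bases.
mt-Atp8 and mt-Atp6: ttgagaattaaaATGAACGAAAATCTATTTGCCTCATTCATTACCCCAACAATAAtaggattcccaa
mt-Nd4l and mt-Nd4: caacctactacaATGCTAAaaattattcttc
mt-Nd5 and mt-Nd6: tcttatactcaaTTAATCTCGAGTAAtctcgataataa

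The ends of the coding sequences also depend on RNA processing, because some stop codons are completed only when a poly(A) tail is added. In the annotated transcripts 10 of the 13 mRNAs end in a complete stop codon and 3 end in a single T. Of the complete ones, mt-Nd1 and mt-Nd2 share their last 2 bases, AG, with the tRNA genes mt-Ti and mt-Tw. mt-Atp6 shares its last base, A, with the start of mt-Co3. The stop codons of mt-Nd1, mt-Nd2 and mt-Atp6 thus also depend on where the transcript is cut. The lines below give the last 15 bases of the 3 that end in a single T. They are mt-Co3 (chrM:9376-9390), mt-Nd4 (chrM:11530-11544) and mt-Cytb (chrM:15274-15288), beside mt-Co1 (chrM:6858-6872) with a complete stop, all on the plus strand. Capitals mark the stop codon or the part of it that is encoded.
mt-Co3 end: attgatgaggatctT
mt-Nd4 end: caggcctgacaataT
mt-Cytb end: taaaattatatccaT
mt-Co1 end: gtaaaagtaaaaTAA

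Elavl1, the gene targeted in these mice, went against the labels. It had 377 and 347 counts in control mice 1 and 2 and 541 and 648 counts in mice 3 and 4. Its level was 27.1 ± 1.74 CPM (SD, n = 2) in control and 36.0 ± 2.36 CPM in mice 3 and 4. Mice 3 and 4 were each above both controls, where 19.3% of all genes tested did the same. The log2 fold change was 0.41 (SE 0.135, adjusted p = 0.545 by edgeR's quasi-likelihood test with Benjamini-Hochberg adjustment). The count covers the whole gene and does not show the floxed part separately, so a shortened transcript would still be counted. The paper itself reports reduced HuR mRNA and protein in the liver of HuR hKO mice on this diet. It also shows the loss of HuR in hepatocytes by immunofluorescence. Here and below a CPM value is a count scaled to the TMM-adjusted library size, fold changes are the libraries labelled HuR hKO over control, and all directions rest on those labels.

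The libraries held between 13032095 and 19715577 counts, the largest from mouse 4, and 13001 genes passed the filter on low counts. No library repeated another, since the chi-square statistic per degree of freedom between any pair was 23.0 to 35.7. The tissue was liver by its markers, as 8 hepatocyte genes summed to between 60840 and 69062 CPM with overlapping groups. The 6 muscle genes summed to 0.225, 0.298, 0.975 and 0.265 CPM in mice 1 to 4. Of these, 3 (Acta1, Ckm and Mb) were at 0 in every library. Of the other marker lists, Kupffer cell (8 genes, 167 to 195 CPM), endothelial (8 genes, 231 to 294 CPM) and erythroid genes (6 genes, 363 and 450 against 488 and 710 CPM) summed higher in both libraries labelled HuR hKO. For the endothelial genes control mouse 1 (261.94 CPM) and mouse 4 (262.29 CPM) were nearly level. Neutrophil genes (6 genes, 1 of them tested, Ly6g at 0) summed lower, at 1.954 and 3.057 against 1.951 and 1.485 CPM. There control mouse 1 and mouse 3 were nearly level. Among all genes tested 19.3% were higher and 18.8% lower without overlap. Stellate (192 to 264 CPM), cholangiocyte (27.5 to 52.8 CPM) and lymphocyte sums (9.17 to 17.0 CPM) overlapped. No marker gene passed adjusted p 0.05 by edgeR's quasi-likelihood test. At an unadjusted p under 0.05, 2 of 8 stellate, 1 of 4 cholangiocyte and 3 of 5 erythroid genes tested were higher. Over all genes tested 4.04% were higher at that level. The part of these cells in the results that follow was not tested.

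Mitochondrial genes took about the same share of the counts in both groups, and no single mitochondrial gene passed the test. They held 922990 counts in control mouse 1, 996349 in control mouse 2, 906387 in mouse 3 and 1506171 in mouse 4. As shares of all counts these were 7.08% and 7.32% in control and 6.56% and 7.64% in the libraries labelled HuR hKO. Both control values lay between those of mice 3 and 4 (means 7.20% ± 0.166 and 7.10% ± 0.760, SD, n = 2; two-sided exact permutation p = 1). The smallest p that 2 mice against 2 can give in that test is 0.33.

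Of the 37 genes, 16 had enough counts to be tested: the 13 protein genes, both rRNA genes and mt-Ts1. The other 21, all tRNA genes, were too low. In edgeR's quasi-likelihood test 0 of 16 passed adjusted p 0.05 in either direction, against a background of 0.0154% of all genes tested that were called higher and 0.00769% called lower, and DESeq2 and limma-voom called 0 as well. At an unadjusted p under 0.05 edgeR gave 1 of 16 (mt-Rnr1), where 7.43% of all genes reached that level. DESeq2 gave 2 of 16, where 575 of all 13001 genes tested reached it, and limma-voom gave 1, where 982 did. The groups did not overlap for 2 genes that were higher (mt-Rnr1 and mt-Rnr2), where 19.3% of all genes did the same, and for 1 that was lower (mt-Nd4), where 18.8% did. With 2 libraries in each group such separations are common over the whole table, and they were not more frequent among these 16 genes.

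**Figure D1:**
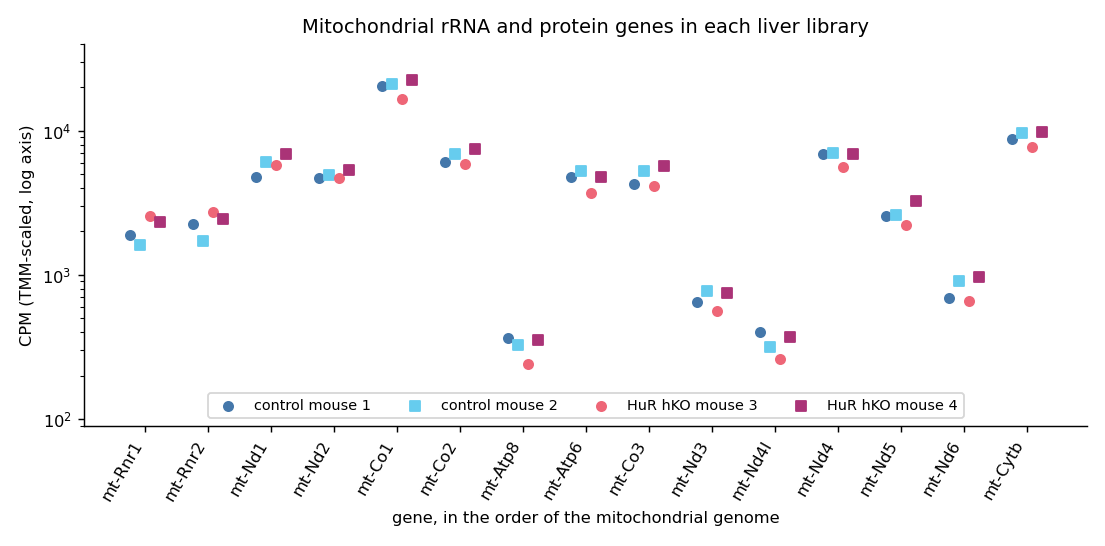
CPM (log axis) of the 15 mitochondrial rRNA and protein genes in each of the 4 libraries, in genome order; each point is 1 library. Both rRNA genes are higher in both libraries labelled HuR hKO, and mouse 3 is the lowest library for 12 of the 13 protein genes.

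The rRNA genes had the largest fitted fold changes among the rRNA and protein genes. mt-Rnr1, the rRNA of the small mitochondrial ribosomal subunit (chrM:70-1024), stood at 1897 and 1606 CPM in control mice 1 and 2 and at 2566 and 2321 CPM in mice 3 and 4. Mice 3 and 4 were each above both controls, by 1.40-fold on the fitted scale (edgeR log2 fold change 0.48, SE 0.172, unadjusted p = 0.0229, adjusted p = 0.574). The fold change lay at percentile 93.5 of all genes tested.

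mt-Rnr2, the rRNA of the large subunit (chrM:1094-2675), stood at 2266 and 1717 CPM in control and at 2718 and 2459 CPM in mice 3 and 4. Again the groups did not overlap, with the lower value of the libraries labelled HuR hKO not far above the higher control (log2 fold change 0.38, SE 0.190, adjusted p = 0.697, edgeR). Without control mouse 1 the log2 fold change was 0.58, and it was 0.19 without control mouse 2. Since one transcript carries both rRNAs, they are not independent of each other. mt-Rnr2 had 1.19 counts per count of mt-Rnr1 in control mouse 1 and 1.07, 1.06 and 1.06 in the other libraries.

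Together the rRNA genes summed to 4163 and 3323 CPM in control and to 5284 and 4780 CPM in the libraries labelled HuR hKO. Their share of all counts was 0.425% and 0.327% in control and 0.549% and 0.457% in mice 3 and 4, with no overlap (exact permutation p = 0.33, the smallest possible). As a share of the mitochondrial counts alone the separation was gone. That share was 6.00%, 4.47%, 8.37% and 5.99% in mice 1 to 4, so mouse 4 lay just under control mouse 1 (difference of the means 1.94 percentage points, exact permutation p = 0.667). The highest share was in mouse 3, the library with the lowest protein gene levels.

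How much of an rRNA is counted depends on how a library was made, and whether poly(A) selection or rRNA removal was used is not given in the sources used here. RNAs that mostly lack a poly(A) tail were therefore set beside the rRNAs. Of 73 such genes 13 were tested, 9 with a log2 fold change above 0 and 4 below (median 0.31). In edgeR's quasi-likelihood test 0 passed adjusted p 0.05. At an unadjusted p under 0.05 there were 3 of the 13 (2 higher, 1 lower), where 7.43% of all genes reached that level. For 7 of the 13 both libraries labelled HuR hKO lay above both controls, where 19.3% of all genes did so, and for 1 below. The 67 replication-dependent histone genes summed to 278 and 323 CPM in control and to 322 and 338 CPM in mice 3 and 4, so these groups overlapped.

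The 2 genes of that list with the smallest p lay in opposite directions. Hist2h2aa1, a histone H2A gene, had 9.17 and 7.53 CPM in control and 11.8 and 12.7 CPM in mice 3 and 4 (log2 fold change 0.55, SE 0.183, adjusted p = 0.548, edgeR). Rn7s1, a signal recognition particle RNA, had 18.5 and 25.4 against 13.9 and 15.9 CPM (log2 fold change -0.56, SE 0.186, adjusted p = 0.548, edgeR). Rn7s2 had 82, 36, 100 and 90 counts in mice 1 to 4, and Rn7sk, which restrains transcription elongation, had 36, 24, 21 and 51. Rmrp and Rpph1, RNA subunits of nuclear RNases, were scarce, with 2, 2, 4 and 5 counts and 1, 1, 5 and 8 counts, and Terc, the telomerase RNA, had at most 2 in a library. Their part in the rRNA values was not tested.

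The 13 protein genes were spread around no change, and mice 3 and 4 differed more from each other than the groups did. Their median log2 fold change was -0.08, beside 0.00 for all genes tested. Of the 13, 6 lay above 0 and 7 below, and for 10 the log2 fold change was smaller than its SE, which ran from 0.181 to 0.233. Mouse 4 was higher than mouse 3 for all 13 genes, by a median of 0.42 on the log2 scale (range 0.20 to 0.56), although both carry the same label. Control mouse 2 was higher than control mouse 1 for 11 of 13, by a median of 0.13. Mouse 3 was the lowest library for 12 of the 13 genes and mouse 4 the highest for 8. Mouse 4 also had the most counts, and what else sets these mice apart was not tested.

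**Figure D2:**
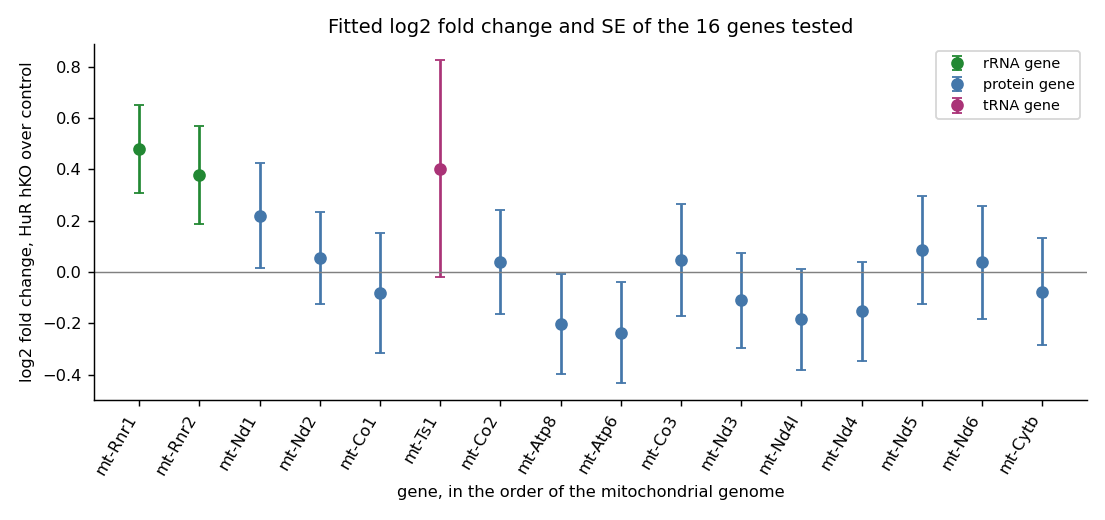
Fitted log2 fold change (libraries labelled HuR hKO over control) with its SE for the 16 genes tested, in genome order. The bars of 10 of the 13 protein genes include 0, mt-Rnr1 is at 0.48 and mt-Atp6, the lowest, at -0.24.

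Complex I, which takes electrons from NADH, has 7 of the 13 proteins, and their genes had log2 fold changes from -0.18 to 0.22 (median 0.04). mt-Nd1, in its membrane arm, had 4796 and 6043 CPM in control and 5745 and 6878 CPM in mice 3 and 4. The mice alternated, each label holding a lower and a higher value (log2 fold change 0.22, SE 0.205, adjusted p = 0.850, edgeR). mt-Nd4, another membrane subunit, had 6848 and 6963 CPM in control and 5573 and 6845 CPM in mice 3 and 4. It was the only protein gene without overlap, although mouse 4 and control mouse 1 were within a few CPM (log2 fold change -0.15, SE 0.193, adjusted p = 0.888, edgeR).

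The remaining subunits of complex I overlapped between the groups. mt-Nd2 had 4707 and 4966 CPM in control against 4668 and 5379 CPM (log2 fold change 0.05), and mt-Nd5 had 2547 and 2592 against 2214 and 3240 CPM (0.09). mt-Nd3 had 644 and 773 against 560 and 752 CPM (-0.11), and mt-Nd4l had 399 and 318 against 261 and 370 CPM (-0.18). For all of them but mt-Nd4l the order within each label was the same, mouse 2 above mouse 1 and mouse 4 above mouse 3. mt-Nd6, the only protein gene of the minus strand, had 689 and 899 against 659 and 970 CPM (0.04).

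Complex III passes electrons to cytochrome c, and its single mitochondrial subunit is cytochrome b, the product of mt-Cytb. The gene had 8813 and 9647 CPM in control and 7651 and 9844 CPM in mice 3 and 4. Mouse 3 was the lowest and mouse 4 the highest, with both controls between them (log2 fold change -0.08, SE 0.209, adjusted p = 0.961, edgeR).

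Complex IV, cytochrome c oxidase, reduces oxygen, and its 3 mitochondrial subunits form its catalytic core. mt-Co1, which holds the oxygen-reducing site, ranked at place 3 among all genes of the table by summed counts. It had 20278 and 21057 CPM in control and 16564 and 22497 CPM in mice 3 and 4 (log2 fold change -0.08, SE 0.233, adjusted p = 0.961, edgeR). mt-Co2, which receives electrons from cytochrome c, had 6109 and 6875 against 5885 and 7469 CPM (0.04). For mt-Co3 the values were 4256 and 5217 against 4115 and 5669 CPM (0.05). In all 3 genes mouse 3 was the lowest and mouse 4 the highest, and the controls lay between.

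Complex V makes ATP, and its mitochondrial subunits lie in the membrane part through which protons pass. mt-Atp6 had 4757 and 5289 CPM in control and 3725 and 4801 CPM in mice 3 and 4. The groups overlapped, since mouse 4 was above control mouse 1, and the log2 fold change of -0.24 was the lowest of the 16 genes (SE 0.198, adjusted p = 0.835, edgeR). mt-Atp8, read in an overlapping frame ahead of it, had 365 and 324 against 242 and 356 CPM (log2 fold change -0.20, SE 0.194, adjusted p = 0.850, edgeR). mt-Atp8 had 7.67, 6.12, 6.50 and 7.41 counts per 100 of mt-Atp6 in mice 1 to 4, and mt-Nd4l had 5.83, 4.56, 4.69 and 5.40 per 100 of mt-Nd4. In both pairs, which share bases and are carried by one mRNA each, mice 1 and 4 had the higher ratios, so the ratio did not separate the labels.

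Scaled by gene length, the levels differed widely although the genes of a strand come from common transcripts. On the scale of mean CPM per kilobase over all 4 libraries, mt-Co1 was highest at 13009, followed by mt-Co2 at 9626 and mt-Cytb at 7857. Then came mt-Atp6 at 6818, mt-Co3 at 6141 and mt-Nd1 at 6129, of which the latter pair differed by less than their spread, and mt-Nd4 at 4759 beside mt-Nd2 at 4749, equally close. mt-Rnr1 was at 2196, mt-Nd3 at 1960, mt-Atp8 at 1577, mt-Nd6 at 1550, mt-Nd5 at 1452, mt-Rnr2 at 1448 and mt-Nd4l at 1135. The order depended on reads counted on nuclear copies of these genes, described further on. With those counts added, an alternative chosen after seeing the data, mt-Co3 (10047) and mt-Atp6 (9948) passed mt-Cytb, mt-Nd3 (2847) passed mt-Rnr1, and mt-Nd4l (1557) passed mt-Nd6, mt-Nd5 and mt-Rnr2. The order of the levels is a description, and, without the copies, neighbours from mt-Atp8 to mt-Rnr2 lay within the spread between libraries. mt-Atp8 and mt-Atp6 share an mRNA, as do mt-Nd4l and mt-Nd4, yet the genes of each pair were far apart on this scale. The values are therefore counts per length and cannot be read as amounts of RNA. Those of the rRNAs also depend on how the libraries were made, which is not given in the sources used here.

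Within the mitochondrial mRNAs, the make-up of the pool was compared next. Such a share does not depend on library size, but shares of one pool are tied to each other. Complex V took 7.86% and 7.91% of the counts on protein genes in control and 6.86% and 6.87% in mice 3 and 4. Both libraries labelled HuR hKO were lower by about 1 percentage point (-1.02, exact permutation p = 0.33, the smallest possible), and each label's values were close together. Most of it was mt-Atp6, with 7.30% and 7.45% against 6.44% and 6.39%.

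Complex I went the other way, with 31.6% and 31.8% in control against 34.0% and 32.5%. It did so through mt-Nd1, which took 7.36% and 8.52% in control and 9.93% and 9.16% in mice 3 and 4, whereas mt-Nd4 took 10.5% and 9.81% against 9.63% and 9.12%. Complex III (mt-Cytb) took 13.5% and 13.6% against 13.2% and 13.1%. Complex IV overlapped, at 47.0% and 46.7% against 45.9% and 47.5%, although mt-Co2 within it was higher at 9.37% and 9.69% against 10.2% and 9.95%. In all, 2 of the 13 genes had a higher share and 3 a lower one in both libraries labelled HuR hKO, and 8 overlapped. Over all genes the CPM levels were apart for 19.3% (higher) and 18.8% (lower), so the number of genes apart is close to the background. Each of these 13 comparisons has a smallest possible exact permutation p of 0.33, so none can reach 0.05.

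**Figure D3:**
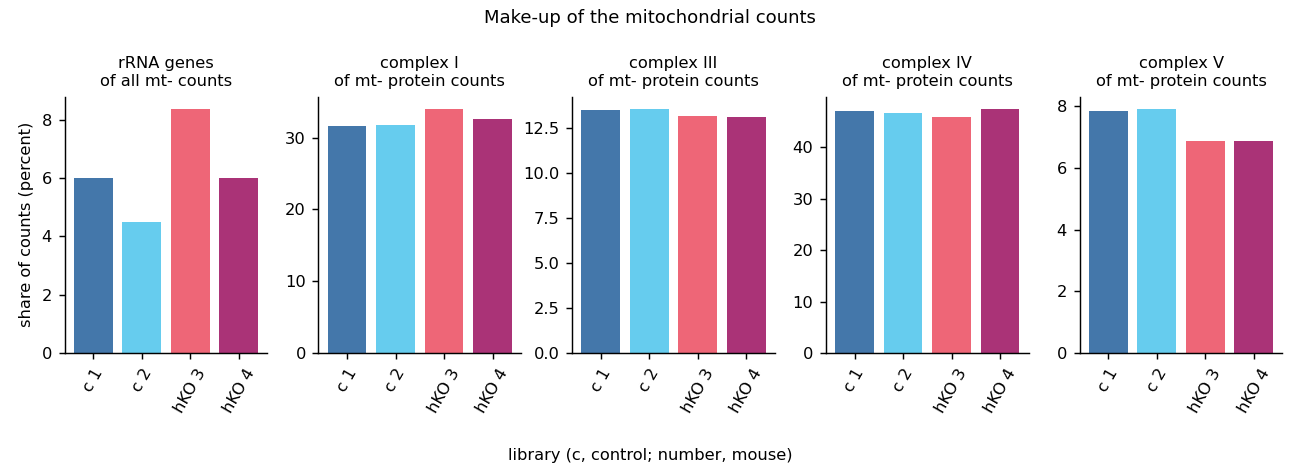
Shares of counts in percent for each library, with bars from 0: rRNA genes as a share of all mitochondrial counts, and the genes of complexes I, III, IV and V as shares of the counts on the 13 protein genes. Complex V is at 7.86% and 7.91% in control and at 6.86% and 6.87% in the libraries labelled HuR hKO, while the rRNA share overlaps.

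Counts by strand overlapped between the groups. Genes of the minus strand held 0.997% and 1.22% of the mitochondrial counts in control and 1.05% and 1.23% in mice 3 and 4 (exact permutation p = 0.667), nearly all of it on mt-Nd6. mt-Nd6 had 27.0, 34.7, 29.8 and 30.0 counts per 100 of mt-Nd5, its neighbour on the plus strand, in mice 1 to 4, with both values of the libraries labelled HuR hKO between the controls. Whether the counting used strand is not given in the sources used here, and without strand the reads from overlapping genes of opposite strands cannot be told apart. Along the plus strand the log2 fold change went from higher at the rRNA genes to lower further on. Over the 14 rRNA and protein genes Spearman's rho with the start position was -0.52 and Pearson's r -0.72, and over the 12 protein genes alone they were -0.24 and -0.40. The genes share libraries and a transcript, so this is a description only.

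The tRNA genes were close to unseen, with 1 exception. Of 22, 15 had no count in any library and 6 had 1 to 3 counts in all 4 libraries together, 10 counts in sum. A count of 0 allows up to 3 counts, which is 0.159 to 0.225 CPM in these libraries, and this limit covers counting error only. At 59 to 75 bases these genes are short, and the fragment sizes kept in the libraries are not given in the sources used here, so no level of a tRNA can be read from the zeros.

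The exception was mt-Ts1, a serine tRNA gene, with 43 and 89 counts in control and 59 and 166 counts in mice 3 and 4. Each label held a lower and a higher library, and the groups overlapped (log2 fold change 0.40, SE 0.423, adjusted p = 0.867 in edgeR's quasi-likelihood test). Without control mouse 1 the log2 fold change was -0.03 and without mouse 4 it was -0.26. The gene lies on the minus strand at chrM:6870-6938, and its last 3 bases are the reverse complement of the stop codon of mt-Co1, so it sits antisense at the end of the most counted mitochondrial mRNA. It is shown 5′ to 3′ with the shared bases in capitals.
mt-Ts1: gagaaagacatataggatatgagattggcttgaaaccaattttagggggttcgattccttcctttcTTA

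Set against mt-Co1, mt-Ts1 was again low and high within each label, in the order of its own counts. Whether its counts came from the tRNA or from reads that run past the end of mt-Co1 was not tested.

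Mouse chromosomes carry copies of mitochondrial DNA, and reads that match both places can be counted on either. Among gene rows outside the mt- set, 16 had an annotated transcript matching a mitochondrial one at 90% identity or more over at least 100 bases, all annotated as pseudogenes, and 15 of them had counts. They held 95489 and 119783 counts in control and 100090 and 155184 in mice 3 and 4, which is 10.3 and 12.02 against 11.04 and 10.3 per 100 counts on the mitochondrial genes. The groups overlapped on that ratio (exact permutation p = 0.667). Most of these counts fell on 7 rows side by side on the minus strand of chr1:24611535-24616197, which match mt-Nd4, mt-Nd4l, mt-Nd3, mt-Co3, mt-Atp6, mt-Co2 and mt-Co1.

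Gm28437, identical to mt-Co3 over 783 bases, had 37176 and 47143 counts in control and 37331 and 62990 in mice 3 and 4. Gm10925, identical to mt-Atp6 over 678 bases, had 28904 and 31357 against 27859 and 39121 counts. Gm28661, identical to mt-Co2 over 681 bases, had 14630 and 18237 against 18867 and 26267 counts. None of the 3 passed the test, with edgeR log2 fold changes of -0.09 (SE 0.204), -0.17 (SE 0.161) and 0.14 (SE 0.168) and adjusted p-values from 0.850 to 0.951. For identical stretches a read cannot be assigned by its bases, so the split between each gene and its copy is uncertain.

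The split differed between genes and between libraries. Copies held 39.6% and 40.3% of the summed counts of mt-Co3 and its copy in control and 38.7% and 37.1% in mice 3 and 4, lower in both libraries labelled HuR hKO. For mt-Atp6 the copies held 30.2% to 34.3%, for mt-Nd4l 23.0% to 30.6%, for mt-Co2 15.5% to 18.4%, for mt-Co1 3.08% to 5.24% and for mt-Nd4 1.01% to 1.30%. For mt-Nd3 they held 24.2% and 28.8% in control and 37.4% and 33.7% in mice 3 and 4, higher in both libraries labelled HuR hKO. Such separations are common with so few libraries, as the CPM levels of all genes tested were apart for 19.3% (higher) and 18.8% (lower). No annotated row matched mt-Rnr1, mt-Rnr2, mt-Nd1 or mt-Atp8. The tRNA genes are shorter than the 100 bases a match had to cover, and copies outside annotated rows were not searched.

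Adding each copy's counts to its gene turned mt-Co3 from 0.05 to -0.01 and mt-Nd3 from -0.11 to 0.07 on the log2 fold change scale, and moved the median of the protein genes to -0.01. No gene passed adjusted p 0.05 in edgeR with the copies added. The lower share of complex V held, at 10.1% and 9.95% in control and 9.11% and 8.68% in mice 3 and 4, and so did the higher share of complex I, at 29.1% and 28.9% against 31.1% and 30.0%.

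**Figure D4:**
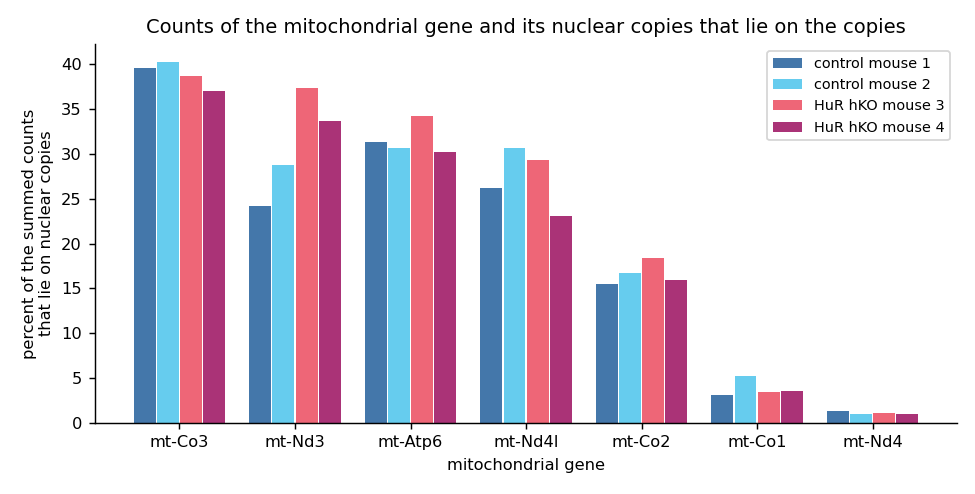
Percent of the summed counts of a mitochondrial gene and its nuclear copies that lie on the copies, for the 7 genes where this passed 1% in a library; bars start at 0 and each is 1 library. mt-Co3 has the highest share, 37.1% to 40.3%. In both libraries labelled HuR hKO the share is lower for mt-Co3 and higher for mt-Nd3.

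Nuclear genes that act on the mitochondrial genome or complete its complexes were described beside the mitochondrial genes, as counts and medians without a test of the lists. Over all such lists and the RNAs without poly(A) tail, 256 genes were tested and 0 passed adjusted p 0.05 in edgeR's quasi-likelihood test, with 16 at an unadjusted p under 0.05 (11 higher, 5 lower), where 7.43% of all genes reached that level. limma-voom called 0 and DESeq2 called 1, Lars2. Over all 13001 genes tested, edgeR called 3, limma-voom 2 and DESeq2 85.

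Of 19 genes for transcription and replication of mitochondrial DNA, 7 had log2 fold changes above 0 and 12 below (median -0.05). Polrmt, the mitochondrial RNA polymerase, had 23.8 and 24.2 CPM in control and 22.6 and 20.996 CPM in mice 3 and 4 (log2 fold change -0.14, SE 0.135). Tfam, which packs the DNA and helps to start transcription, had 38.9 and 48.2 against 44.7 and 46.0 CPM (0.06, SE 0.147), and Tfb2m, the other initiation factor, had 26.5 and 28.4 against 23.0 and 24.6 CPM (-0.21, SE 0.133).

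None of these transcription factors passed the test, with adjusted p-values from 0.768 to 0.956 in edgeR. The smallest p in the list belonged to Tk2, the mitochondrial thymidine kinase, at 22.5 and 27.0 against 19.2 and 16.5 CPM (log2 fold change -0.47, SE 0.159, adjusted p = 0.559, edgeR), and then to Mterf3, at 17.3 and 16.9 against 14.1 and 13.4 CPM (-0.32, SE 0.147, adjusted p = 0.675, edgeR). Both were lower in both libraries labelled HuR hKO.

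Genes for processing and stability of mitochondrial RNA numbered 37, with 12 above 0 and 25 below (median -0.04). For 13 of them both libraries labelled HuR hKO lay under both controls, and for 2 above, where 18.8% and 19.3% of all genes did so. Lrpprc, which with Slirp protects mitochondrial mRNAs, had 127 and 120 CPM in control and 124 and 122 CPM in mice 3 and 4 (log2 fold change -0.01, SE 0.124). Slirp had 23.9 and 26.3 against 24.5 and 31.9 CPM (0.17, SE 0.163), and Elac2, which cuts the 3′ end of tRNAs, had 28.5 and 24.9 against 25.7 and 26.1 CPM (-0.04, SE 0.137).

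The smallest p-values of that list came from genes with lower levels. Fastkd5, needed for mRNA ends that no tRNA marks, had 6.69 and 6.93 CPM in control and 4.04 and 3.76 CPM in mice 3 and 4, a log2 fold change of -0.80 (SE 0.224, adjusted p = 0.435, edgeR). Pnpt1, the mitochondrial polynucleotide phosphorylase, had 22.5 and 17.0 against 13.4 and 14.3 CPM (-0.52, SE 0.177, adjusted p = 0.572, edgeR). Neither passed the adjusted threshold, in the fit above or in any alternative.

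Proteins of the mitochondrial ribosome, which bind the rRNAs, had 79 genes, of which 67 lay above 0 and 12 below (median 0.13). Both libraries labelled HuR hKO lay above both controls for 28 of them, where 19.3% of all genes did so, and below for 0, and 8 were higher at an unadjusted p under 0.05, where 4.04% of all genes were. The median was 0.04 without control mouse 1, 0.26 without control mouse 2, 0.20 without mouse 3 and 0.03 without mouse 4. Mrpl41, a large-subunit protein, had 20.97 and 24.2 CPM in control and 28.3 and 33.9 CPM in mice 3 and 4 (log2 fold change 0.46, SE 0.153, adjusted p = 0.546, edgeR). Mrps34, a small-subunit protein, had 53.3 and 58.2 against 70.1 and 75.2 CPM (0.38, SE 0.128, adjusted p = 0.555, edgeR).

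Of 23 genes that charge mitochondrial tRNAs, 13 lay above 0 and 10 below (median 0.05). Lars2, the mitochondrial leucyl-tRNA synthetase, had 362 and 224 CPM in control and 148 and 160 CPM in mice 3 and 4. It had the lowest log2 fold change of the list, -0.93 (SE 0.216, adjusted p = 0.313, edgeR), and the control mice differed from each other by 0.69 on the log2 scale. It was called with DESeq2 (adjusted p = 0.00374), in edgeR without the filter on low counts (adjusted p = 0.00414) and in edgeR without control mouse 2 (adjusted p = 0.0191), and in none of the other alternatives. AY036118 and Gm26917, annotated non-coding RNA rows chosen after their values were seen, had the same order of libraries, at 168 and 125 against 74.8 and 87.6 CPM and at 273 and 184 against 133 and 172 CPM. Gm42418, a row looked at with them, did not follow that order, at 130 and 132 against 121 and 149 CPM. These rows were looked at as rows that can collect reads of cytosolic rRNA. Whether the counts on Lars2 came from its mRNA or from such reads was not tested. Gatc, a subunit of the enzyme that makes glutaminyl-tRNA, had 20.5 and 20.3 against 15.3 and 17.2 CPM (log2 fold change -0.33, SE 0.145, adjusted p = 0.674, edgeR).

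Of 10 regulators of mitochondrial biogenesis, 6 lay above 0 and 4 below (median 0.09). Ppargc1a, the coactivator PGC-1α, had 6.31 and 5.74 CPM in control and 5.78 and 7.90 CPM in mice 3 and 4 (log2 fold change 0.19, SE 0.234). Nrf1, a transcription factor of respiratory genes, had 7.97 and 8.65 against 9.20 and 9.54 CPM (0.17, SE 0.180). The smallest p-values were those of Yy1, a zinc finger factor, at 32.1 and 30.3 against 35.8 and 37.3 CPM (0.23, SE 0.129, adjusted p = 0.731, edgeR), and of Esrrg, a nuclear receptor, at 1.88 and 3.95 against 1.67 and 2.01 CPM (-0.65, SE 0.420, adjusted p = 0.768, edgeR).

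The nuclear subunits of the complexes lay mostly above 0, beside mitochondrial subunits that were spread to both sides. Over 75 nuclear subunits 66 were above 0 and 9 below (median 0.13), against 6 and 7 of the 13 mitochondrial ones (median -0.08). Both libraries labelled HuR hKO lay above both controls for 11 of the 75 and below for 1, fewer than the 19.3% and 18.8% of all genes that did so. The nuclear median was -0.01 without control mouse 1 and also -0.01 without mouse 4, so it rested on those libraries. By complex the nuclear medians were 0.14 (I, 36 genes), 0.09 (II, 4 genes, which has no mitochondrial subunit), 0.19 (III, 9 genes), 0.07 (IV, 11 genes) and 0.12 (V, 15 genes). The mitochondrial medians were 0.04, -0.08, 0.04 and -0.22 for complexes I, III, IV and V.

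Examples with the smallest p of each complex did not pass the test either, with edgeR adjusted p-values of 0.675 to 0.888. Ndufb4 of complex I had 25.6 and 32.5 CPM in control and 31.4 and 49.9 CPM in mice 3 and 4, and Ndufs7 had 92.5 and 124 against 127 and 147 CPM. In complex II, Sdhd had 152 and 167 against 173 and 183 CPM and Sdhb had 216 and 254 against 221 and 298 CPM. Mouse 4 was the highest library for each of these genes, and control mouse 1 the lowest.

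Control mouse 1 was also the lowest library and mouse 4 the highest in the examples of the other complexes. Uqcr11 and Uqcrq of complex III had 122 and 181 against 163 and 217 CPM and 308 and 428 against 390 and 494 CPM. In complex IV, Cox4i1 had 461 and 579 against 556 and 647 CPM and Cox7a2 had 100 and 129 against 116 and 142 CPM. Atp5e and Atp5l of complex V had 119 and 182 against 175 and 234 CPM and 107 and 138 against 129 and 183 CPM.

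**Figure D5:**
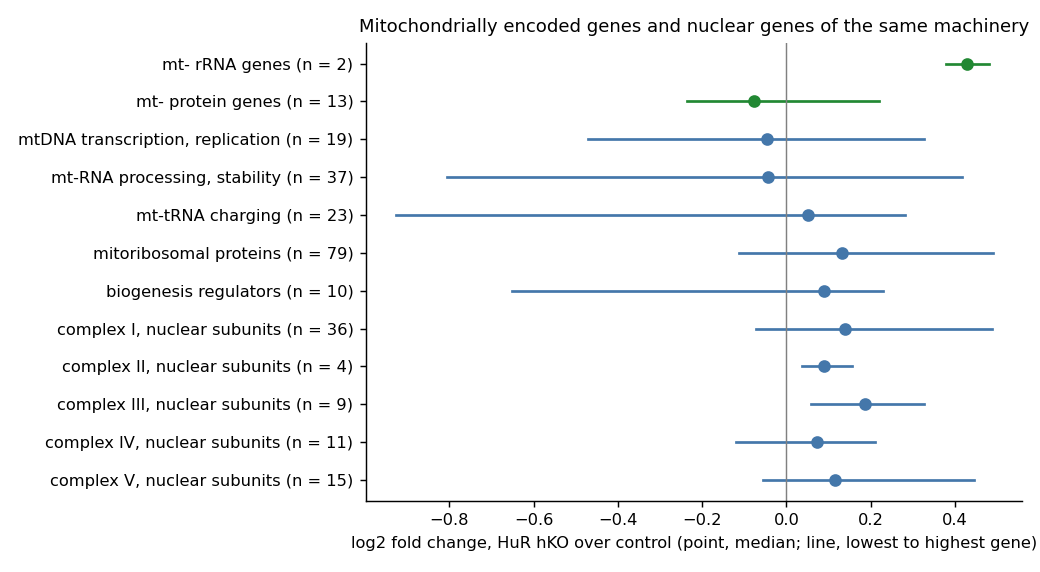
Log2 fold change (libraries labelled HuR hKO over control) of the mitochondrial rRNA and protein genes and of nuclear genes of the same machinery; points are medians, lines run from the lowest to the highest gene of a list, and n is the number of genes tested. The median is 0.43 for the rRNA genes, -0.08 for the protein genes and between -0.05 and 0.19 for the nuclear lists.

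The genes outside the set whose pattern over the 4 libraries was most like the mean of the mitochondrial protein genes were Crcp, Mthfsd and 1110008P14Rik. Likeness was the Euclidean distance between centred log2 CPM values, at 0.0210, 0.0221 and 0.0258. Crcp, for example, had 22.6 and 24.8 CPM in control and 19.9 and 26.5 CPM in mice 3 and 4. With 4 libraries many genes can share such an order, and nothing beyond the order is meant by it.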

How the data were processed

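The authors deposited whole-number counts of reads per Ensembl gene for 4 liver libraries, without normalization. The submitters' processing notes name RSEM and GRCm38. The aligner, the use of strand and the treatment of reads with several matches are not given in the sources used here, and the counts may be rounded estimates. 0 columns were left without a sample. Symbols were found for 46005 of 46603 identifiers, and coordinates and transcripts came from GENCODE M21 (GRCm38), whose table named all 37 mitochondrial genes.

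Genes were kept by edgeR's filter (minimum 10 counts, total 15), which left 13001. Groups were compared with edgeR 4.0.16 in R 4.3.3 (TMM factors, quasi-likelihood test, Benjamini-Hochberg adjustment over all genes tested, threshold 0.05). limma 3.58.1 and DESeq2 1.42.0 served as alternatives. Single values per library were compared by two-sided exact permutation tests (scipy 1.17.1). The fit was also run on simulated data, in 3 runs with 200 changed genes each. The changes set there were larger than those fitted for the mitochondrial genes tested. These runs therefore do not show whether changes of the size seen here would be found. Mice are the replicates, as the titles number them separately. Nuclear copies were found with BLAST+ 2.17.0, matching transcripts to the mitochondrial transcripts because no genome sequence was used. Adding their counts to the mitochondrial genes was chosen after seeing the data.

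Members and gene lists were chosen with earlier results of these data known. Named were all 37 mitochondrial genes (tRNA genes by name from 10 counts in a library), the 2 genes of smallest p in each nuclear list, 8 genes fixed by name, Elavl1, the 3 nuclear copies with most counts and the 3 genes of nearest pattern.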

Additional observations from a re-analysis of the deposited data

How the results depend on the processing

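No mitochondrial gene passed adjusted p 0.05 in any of the 15 alternatives, and 3 of the 16 genes tested (mt-Rnr1, mt-Rnr2 and mt-Nd1) kept a positive log2 fold change in all of them. For mt-Rnr1 it ran from 0.37 to 0.59 without each mouse in turn, with adjusted p-values from 0.249 to 0.999 over the alternatives of edgeR, DESeq2 and limma-voom. Of 240 pairs of gene and alternative, 25 had the opposite sign. With no scaling for library size the median of all genes moved to 0.31, the median of the protein genes to 0.26, and mt-Co1 (0.26), mt-Atp8 (0.15), mt-Atp6 (0.10), mt-Nd3 (0.23), mt-Nd4l (0.16), mt-Nd4 (0.18) and mt-Cytb (0.26) turned positive, each under that shift. With nuclear copies added, an alternative chosen after seeing the data, mt-Co3 was at -0.0053 and mt-Nd3 at 0.069.

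Without each mouse in turn, the median of the protein genes ran from -0.27 (without mouse 4) to 0.11 (without mouse 3). Log2 fold changes that crossed 0 in this way ran from -0.26 to 1.02 for mt-Ts1, -0.32 to 0.11 for mt-Co1, -0.14 to 0.19 for mt-Co2, -0.20 to 0.24 for mt-Co3, -0.050 to 0.14 for mt-Nd2, -0.34 to 0.069 for mt-Nd3, -0.45 to 0.027 for mt-Nd4l, -0.21 to 0.32 for mt-Nd5, -0.27 to 0.27 for mt-Nd6, -0.51 to 0.031 for mt-Atp8 and -0.27 to 0.076 for mt-Cytb. The difference in the mitochondrial share of counts ran from -0.64 to 0.44 percentage points, that in the rRNA share of mitochondrial counts from 0.75 to 3.13, and that in the minus strand share from -0.08 to 0.14. Where a fit left 1 library in a group, it was assumed to vary like the other group.

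Among the nuclear lists the count past the threshold moved from 0 to 1 (Lars2) without the filter on low counts, with DESeq2 and without control mouse 2, and stayed at 0 otherwise. The cause was not tested. No paired analysis was possible because the mice are numbered 1 to 4 and the groups share no number. With 2 mice in each group, a difference of the size seen between mice 3 and 4 cannot be told from a difference between labels.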
